A study of Danio rerio with 8 samples.

Results

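The baseline expression profile of sorted hindbrain neurons was described in sibling zebrafish larvae, the control group of a study of *phox2a* loss. Members were chosen by label and run alone: the sibling libraries of the 3 repeats that were kept, which are 3 of the 8 libraries in the series, with all 28802 gene rows of the count table. The question was which transmitter, regional, receptor and channel genes these neurons express, at which level, and how far that level moved between repeats. No comparison with *phox2a* null larvae was made, so no test was run and no p-value is given.

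All larvae were 72 to 74 hpf and lacked pigment. The transgene Tg(-6.7Tru.Hcrtr2:GAL4-VP16) drove green Kaede from Tg(UAS:E1b-Kaede), and Tg(isl1:GFP) labeled cranial motor neurons. The genotype at *phox2a* was +/+ or +/-, so wildtype and heterozygous larvae were mixed in each library. Each library held neurons taken by glass capillary from the region of the tangential nucleus of many pooled larvae, dissociated with papain and collagenase, and sorted on green fluorescence after dead cells were left out. The sort did not separate Kaede from GFP, so motor neurons and other cells with the isl1 reporter could enter it, and the Gal4 line labels neurons beyond the tangential nucleus. No gene row was found for the 2 reporters under the names searched, so their expression was not analysed here. The fourth repeat was taken as the one that the study left out for quality, since the count columns carry run codes and not repeat numbers. The 3 libraries are lettered A, B and C in the order of those codes.

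The tangential nucleus is a small vestibular nucleus of the hindbrain. Its projection neurons receive input from the inner ear and excite the extraocular motor neurons that counter-rotate the eyes when the fish tilts. Hindbrain neurons are known by their genes of position, of lineage and of function: hox genes and their cofactors, which follow position along the head-to-tail axis, homeodomain and related factors, which follow the dorsal or ventral progenitor domain a neuron comes from, and the enzymes, transporters, receptors and channels that make up its transmitter and its electrical behavior. In bulk RNA a lower value can mean fewer cells of a type or less RNA per cell, and these cannot be told apart.

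Reads assigned to genes were 19968857 in library A, 19186250 in library B and 18657956 in library C, and values below are counts-per-million (CPM) of these gene reads. One library holds RNA of many cells, so the SD over 3 libraries covers biological and technical spread together. The upper limit behind a count of 0 is 3 reads, or 0.15 to 0.161 CPM by library, and it covers counting error only. Reads fell on 16675 to 18409 genes per library, and 11738 genes reached 1 CPM, 7741 reached 10 CPM and 1637 reached 100 CPM in every library. The spread depended on level. Among 5818 genes with a mean of 1 to 10 CPM the highest library was a median 12.1-fold above the lowest, with a library at 0 counted as 3 reads. This fold was 1.97 for the 7432 genes between 10 and 100 CPM, 1.52 for 2118 genes between 100 and 1000 CPM, and 1.47 for 83 genes above that. Of all 9633 genes with a mean of 10 CPM or more, 58.3% stayed within 2-fold over the 3 libraries, and library B was the lowest of the 3 for 33.8%. These 2 shares are the background for the gene groups that follow. For counts of detected genes the background is all 28802 genes. Of these, 9164 were at or under 3 reads in every library, and 7177 of those had no read. CPM counts reads and is not scaled by transcript length, so levels are compared between libraries and not between genes; an order of genes below is an order of reads.

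The given markers were present in every library, though not all of them mark projection neurons. *stmn1b*, which encodes a microtubule regulator of growing neurites, stood at 8387 CPM in A, 6403 CPM in B and 9032 CPM in C, 7941 ± 1370 CPM (SD, n = 3). *snap25a*, a component of the vesicle fusion machinery, stood at 4315, 1892 and 4265 CPM in A, B and C, so that library B held less than any other library. *evx2*, a homeodomain factor of ventral hindbrain and spinal neurons, stood at 340, 460 and 379 CPM, a mean of 393 ± 61.4 CPM. It marks neurons of the tangential nucleus and of the medial vestibular nucleus, so its level is not that of projection neurons alone. The highest library for *evx2* was 1.35-fold above the lowest, close to the median fold for genes of its level. Its relative *evx1* had 20.4, 29 and 22.5 CPM, and *evx2* took 94.1 to 94.4% of the reads of the pair, a share that hardly moved between libraries. *phox2a*, which extraocular and other cranial motor neurons need for their specification, stood at 468, 493 and 222 CPM, with library C the lowest. By in situ hybridization in older larvae, the study found it in some neurons of the medial vestibular nucleus. It did not find *phox2a* in projection neurons of the tangential nucleus, so this level is not read as theirs.

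Neuronal genes were detected as a group. Of 29 pan-neuronal genes with a row, 26 had a mean of 10 CPM or more. Of these 26, 18 stayed within 2-fold, against 58.3% of all genes. *elavl4*, an RNA-binding protein of postmitotic neurons, was among the most even, with 2072 CPM in A, 1925 CPM in B and 1876 CPM in C. *elavl3*, its early neuronal relative, had 2507, 2922 and 2154 CPM. The group was not equal across libraries: library B was the lowest for 17 of the 26 genes (65.4%), against 33.8% of all genes. Members with the lowest value in B included the neurofilament *nefmb* (260, 83.8 and 214 CPM), while the growth-cone protein *gap43* went the other way at 333, 636 and 305 CPM. *stxbp1b*, a binding partner of syntaxin, was the 1 member at 10 CPM or more with a fold over 5, at 19.3, 5.37 and 30.4 CPM, and *syt1b* and *tubb2b* had no read in any library.

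Genes of glutamate, GABA, glycine and acetylcholine neurons were all present in all 3 libraries. The vesicular glutamate transporter 2 genes *slc17a6b* and *slc17a6a* fill synaptic vesicles in excitatory hindbrain neurons. *slc17a6b* had 232 CPM in A, 58.2 CPM in B and 234 CPM in C, and *slc17a6a* had 80.3, 15.5 and 151 CPM. For both genes library B was well below A and C, and their sum was 313, 73.7 and 385 CPM, a 5.23-fold span. The other vesicular glutamate transporters were nearly silent: *slc17a7a* had no read in any library, and *slc17a7b* and *slc17a8* stayed at or below 2.55 CPM. Of the genes of glutamate supply and uptake that are also used by glia, *glula*, *slc1a2b* and *glulb* had the most reads and narrower spans. Members with fewer reads did not share this. The uptake carrier *slc1a3b* had 270, 0 and 242 reads in A, B and C. The supply gene *glsa* had a 4.38-fold span, against 4.03-fold for *slc17a6b*. The glutamine synthetase gene *glula* had 637, 505 and 799 CPM and the uptake carrier *slc1a2b* had 536, 534 and 822 CPM, both lowest in B and highest in C, whereas the second glutamine synthetase gene *glulb* was highest in B, with 617, 1048 and 627 CPM.

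GABA genes varied less between libraries. Glutamate decarboxylase makes GABA, and its genes summed to 215, 276 and 143 CPM in A, B and C, a mean of 211 ± 66.8 CPM. *gad1b* had 149, 198 and 56.0 CPM, and *gad2* had 61.8, 77.1 and 85.0 CPM, while *gad1a* did not pass 4.36 CPM. The 2 main genes therefore differed in which library was highest. *slc32a1*, the vesicular transporter shared by GABA and glycine neurons, was even at 77.2, 76.6 and 98.3 CPM, and so was the GABA uptake carrier *slc6a1a* at 601, 534 and 615 CPM. Its copy *slc6a1b* had 139, 171 and 94.9 CPM. *slc6a5*, the membrane transporter that defines glycine neurons, had 109 CPM in A, 22.2 CPM in B and 58.6 CPM in C, whereas *slc6a9*, the glial glycine carrier, had 0.20, 1.41 and 9.49 CPM and the serine hydroxymethyltransferase *shmt1* stayed at or below 8.13 CPM. The ratio of vesicular glutamate transporter 2 reads to glutamate decarboxylase reads was 1.46 in A, 0.267 in B and 2.70 in C, lower in library B than in both others. The ratio mixes transcript lengths, so its size says nothing of which cells were more common, and only the difference between libraries can be read.

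Acetylcholine genes were present in every library and highest in A. *slc18a3a*, the vesicular acetylcholine transporter, had 1045 CPM in A, 463 CPM in B and 370 CPM in C. *chata*, choline acetyltransferase, followed the same order with 303, 219 and 153 CPM. *ache*, the enzyme that breaks acetylcholine down, had 534, 261 and 450 CPM, and the choline carrier *slc5a7a* had 251, 100 and 181 CPM. All 5 measured genes of the cholinergic list shared A as the highest library, but the lowest library was C for 3 of them and B for *ache* and *slc5a7a*. *slc18a3b* had 31.6, 17.6 and 10.2 CPM, and *slc18a3a* took 96.3 to 97.3% of the reads of the pair.

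**Figure D1:**
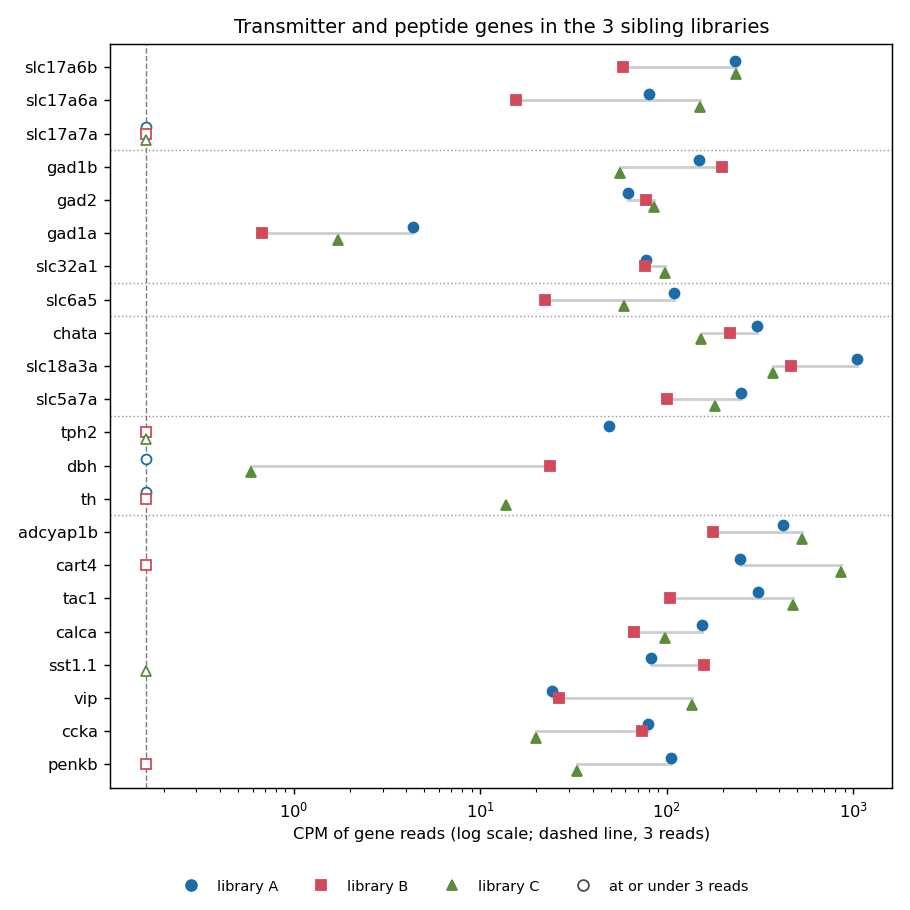
Levels of transmitter genes and neuropeptide precursors in the 3 sibling libraries, in CPM on a log axis; each marker is 1 library, grey lines join the lowest and highest library above the limit of 3 reads, and open markers on the dashed line are libraries at or under it. *slc17a6a* and *slc17a6b* are lowest in library B, and the cholinergic genes are highest in library A. Genes with at least 1 library without reads include *tph2*, *dbh*, *th*, *cart4*, *sst1.1* and *penkb*, and *slc17a7a* has no read in any library.

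Enzymes that define monoamine neurons were low. Each of *tph2*, *dbh* and *th* came mainly from 1 library, but other enzymes of the list did not all do so. *tph2*, the tryptophan hydroxylase of serotonin neurons, had 49.0 CPM in A and no read in B or C. *dbh*, which makes noradrenaline, had 23.7 CPM in B, 0.590 CPM in C and no read in A, and *th*, tyrosine hydroxylase, had 13.8 CPM in C and no read in A or B. The tryptophan hydroxylase *tph1b* was present in every library, with 7.41, 12.6 and 17.3 CPM, and *tph1a* had 0.20, 9.02 and 18.2 CPM. *hdc* had 3.15, 2.71 and 2.25 CPM, while *th2* had 0.30, 0 and 9.11 CPM. The noradrenaline carrier *slc6a2* was highest in the library that held *dbh*, with 5.86, 31.7 and 10.9 CPM. The serotonin carriers *slc6a4a* and *slc6a4b* had no read in any library. Monoamine oxidase *mao*, at 55.4, 69.9 and 44.7 CPM, and *gch1*, which makes the cofactor of these hydroxylases, at 20.5, 12.3 and 24.7 CPM, were present in all 3 libraries.

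Neuropeptide precursors varied widely between libraries. Of 53 precursor genes with a row, 34 had over 3 reads in at least 1 library and 13 had a mean of 10 CPM or more. Among all 28802 genes, 9164 did not pass 3 reads in any library and 9633 had such a mean. Of the 13 precursors 0 stayed within 2-fold, against 58.3% of all genes. *adcyap1b*, the PACAP precursor, had 422 CPM in A, 178 CPM in B and 528 CPM in C. *tac1*, the substance P precursor, had 308, 103 and 474 CPM, and *calca*, the CGRP and calcitonin precursor, had 153, 66.9 and 98.3 CPM. These 3 were present in every library and lowest in B. *cart4*, of the CART peptides, had 246 CPM in A and 857 CPM in C but no read in B, which makes C at least 5481-fold above B when B is set to 3 reads. *cart2* had 29, 8.18 and 73.4 CPM, again with B lowest.

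Other precursors were also missing from 1 library, B for *penkb* and *crhb* and C for *sst1.1* and *vipb*. *penkb*, a proenkephalin, had 105 CPM in A, 33.1 CPM in C and no read in B, and *crhb*, corticotropin-releasing hormone, had 41.5, 0 and 5.09 CPM. *sst1.1*, somatostatin, had 82.2, 159 and 0 CPM. The 2 VIP precursors were opposed: *vip* had 24.1, 26.5 and 136 CPM, highest in C, while *vipb* had 43.1 and 50.1 CPM in A and B and no read in C. *ccka*, cholecystokinin, had 78.9, 73.8 and 19.8 CPM. The precursors *npy*, *hcrt*, *avp*, *oxt*, *pomca* and *agrp*, known from the hypothalamus or pituitary, had no read in any library. Not all such precursors were absent: *trh* had 258 reads in B and none in A or C, and *pomcb* had 127, 0 and 161 reads. All 10 granin and processing genes, which package peptides, had a mean of 10 CPM or more, and 7 of them stayed within 2-fold, against 58.3% of all genes. Carboxypeptidase E, *cpe*, had 1193, 843 and 1128 CPM and the amidating enzyme *pam* had 168, 153 and 145 CPM. *scg2b* stood at 548, 459 and 629 CPM and *chga* at 190, 289 and 180 CPM, while the granin *scg3* was high in B at 265, 898 and 224 CPM. The granins *vgf* (88.4, 53.6 and 125 CPM) and *chgb* (7.46, 13.5 and 16.8 CPM) were also outside 2-fold.

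Position along the head-to-tail axis is carried by the hox genes. Paralog groups 2 to 5 took 93.3% of hox reads in A, 97.2% in B and 97.0% in C. Group 3 alone summed to 688, 1023 and 852 CPM. *hoxd3a* had 394, 693 and 478 CPM and *hoxb3a* had 268, 318 and 374 CPM. *hoxa4a* had 233, 148 and 82.2 CPM and *hoxb2a* had 90, 118 and 126 CPM, so the order of libraries for group 4 was not that of group 2. Groups 2 and 3 were lowest in A, at 107 and 688 CPM, whereas groups 4 and 5 were highest there, at 427 and 351 CPM, against 210 and 166 CPM in C. *hoxb5b* followed this order with 154, 96.7 and 58.5 CPM, while *hoxb5a* was highest in B at 111, 143 and 68.6 CPM. *hoxd4a*, which lies with *barhl2* in the list of caudal and lateral neighbors, was even at 52.7, 48.6 and 48.4 CPM.

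Hox reads were few on either side of this block. The 4 group 1 genes summed to 18.6 to 24.6 CPM. The 4 group 6 genes summed to 85.0 CPM in A and to 25.9 and 20.3 CPM in B and C, a difference carried by *hoxc6b*, which had 72.9, 12.9 and 9.33 CPM. Of 27 genes of groups 7 to 13, which pattern the trunk and tail, 20 were at or under 3 reads in every library and 18 of those had no read. Among all 28802 genes these counts were 9164 and 7177. The highest single value in groups 7 to 13 was 4.27 CPM, and these groups took 0.0944 to 0.354% of hox reads. *hoxc3a* was the one group 3 gene absent from a library, with 26.2, 12.2 and 0 CPM.

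**Figure D2:**
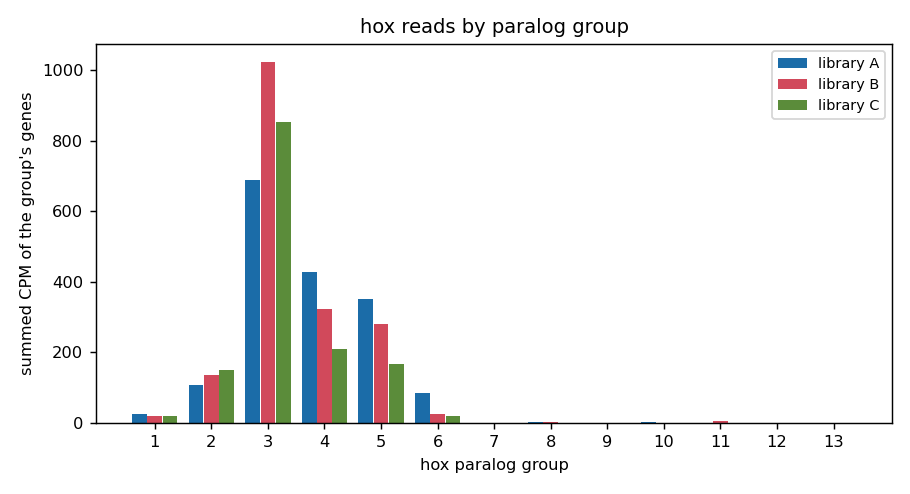
Summed CPM of the hox genes of each paralog group in the 3 sibling libraries (bars, linear axis from 0). Groups 2 to 5 hold 93.3 to 97.2% of hox reads in each library, group 3 is the tallest in all 3, and groups 7 to 13 do not rise visibly above 0.

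Hox cofactors, which bind DNA together with hox proteins, were even across libraries. All 14 were above 3 reads, and 12 of the 13 with a mean of 10 CPM or more stayed within 2-fold, above the 58.3% of all genes. *meis1b* had 2339, 2925 and 2588 CPM and *meis2b* had 1905, 2744 and 2046 CPM. *meis2a* had 675, 856 and 860 CPM, and *pbx3b* had 770, 833 and 763 CPM. Segmental genes of the hindbrain were present as well. The nuclear receptor *nr2f1a* had 391, 480 and 398 CPM and *nr2f2* had 310, 171 and 328 CPM. *cyp26c1*, which breaks down retinoic acid, had 141, 144 and 170 CPM, while *cyp26b1*, of the same family, had 7.76, 42.7 and 15.8 CPM. *epha4b*, an ephrin receptor of hindbrain segments, had 199, 144 and 100 CPM. Of the 2 *mafb* copies, which mark caudal rhombomeres in the early embryo, *mafbb* had 103, 154 and 112 CPM and *mafba* had 86.2, 175 and 73.8 CPM. The segmental genes summed to 1397, 1543 and 1395 CPM.

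Factors of the forebrain, midbrain and midbrain-hindbrain boundary summed to 90.5 CPM in A, 191 CPM in B and 342 CPM in C. The forebrain factors *dlx2a* (10.5, 44.5 and 94.8 CPM), *dlx5a* (0, 29.2 and 110 CPM) and *dlx1a* (0.801, 22.0 and 77.0 CPM) were all lowest in A and highest in C. *foxg1a*, of the telencephalon, had 1.05, 27.6 and 32.7 CPM. The boundary factor *gbx2* went the other way with 16.4, 15.8 and 0 CPM, and *en1b*, which is also a factor of ventral interneurons, had 9.67, 26.7 and 0 CPM. Members with fewer reads did not share one order. *nkx2.1* was highest in C (1.60, 4.64 and 21.5 CPM). *dmbx1a* (19.4, 7.77 and 0 CPM), *six3a* (2.75, 9.49 and 0 CPM) and *six3b* (8.51, 2.08 and 0 CPM) had no read there, and neither had *six6b*, *emx3* and *otx1*. Of 26 such genes, 9 had no read in any library, against 7177 of all 28802 genes. The 9 include *otx2b*, *emx1*, *emx2*, *eomesa* and *tbr1b*. Because *dlx* genes accompany GABA neurons in the forebrain, the GABA genes are given beside them: *gad1b* was lowest in C, at 56.0 CPM, and *gad2* was highest there, at 85.0 CPM; the part of these factors in the transmitter values was not tested.

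Factors of dorsal hindbrain domains summed to 6489, 7538 and 6218 CPM. Of 53 with a row, 27 had a mean of 10 CPM or more, against 9633 of all 28802 genes. The list holds *phox2bb*, *isl1* and *phox2a*, with means of 981, 816 and 395 CPM. These also stand in the motor neuron list below, so the sum is not one of dorsal factors alone. *mab21l2* had the most reads, with 1893 CPM in A, 2934 CPM in B and 1599 CPM in C, and *mab21l1* had 265, 431 and 400 CPM. *phox2bb*, a factor of branchial and visceral motor neurons and of some dorsal hindbrain interneurons, had 1144, 899 and 899 CPM. It took 64.6 to 80.2% of the reads of *phox2a* and *phox2bb*. *isl1*, whose regulatory sequence drives the GFP of these larvae, had 1210 CPM in A, 867 CPM in B and 370 CPM in C, a 3.27-fold span, with C again the lowest.

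Neurons of the most dorsal, glutamatergic rhombic lip lineage are known by *lhx2*, *lhx9* and *barhl2*. *lhx9* had 302, 445 and 380 CPM, *lhx2b* had 170, 322 and 346 CPM and *barhl2* had 86.9, 204 and 131 CPM, and for all 3 library A was the lowest. The progenitor gene of that lineage, *atoh1a*, had no read in any library. *zic1* had 583 CPM in C, against 204 CPM in A and 260 CPM in B. Members of the LIM and TLX families mark another excitatory dorsal class. *lmx1bb* had 51.2, 11.5 and 171 CPM, *tlx2* had 52.6, 6.62 and 99.4 CPM, and *tlx1* had 11.4, 0 and 42.1 CPM. For each of these 3, B was the lowest and C the highest, and so it was for *lmx1ba* (34.8, 13.6 and 50.1 CPM), but *tlx3b* had 22.8 CPM in A and no read in B or C. *gsx1* (1.90, 21.0 and 80.0 CPM), *bhlhe22* (5.81, 7.14 and 77.7 CPM) and *lhx1b* (8.81, 20.4 and 54.5 CPM) were highest in C. Of factors known from inhibitory classes, *pax2a* had 58.1, 102 and 76.4 CPM and *lhx1a*, the copy of *lhx1b*, had 74.1, 75.5 and 66.2 CPM.

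Ventral factors summed to 2002, 2064 and 1606 CPM. *lhx4*, used by motor neurons and V2a interneurons, had 605, 488 and 531 CPM. *gata3*, a factor of V2b inhibitory interneurons, had 273, 249 and 114 CPM. *nkx6.1* had 299, 208 and 84.4 CPM and *nkx6.2* had 167, 119 and 128 CPM; both define ventral progenitor domains and persist in some neurons. *foxp2* had 75.6, 186 and 117 CPM. Some low members were uneven: *uncx* had 3.20, 6.1 and 26.4 CPM and *gata2a* had 17.6, 65.5 and 3.54 CPM. The early V0 progenitor factors *dbx1a* and *dbx1b* and the ventral progenitor factor *olig2* had no read in any library.

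Among all 231 factors of these lists with a row, 121 passed 1 CPM in every library, against 11738 of all 28802 genes. Of the factors, 17 had a higher mean CPM than *evx2*. The 10 nearest to it in mean CPM, over 3 libraries, were *phox2a* (395 CPM), *zfhx3* (383 CPM), *meis3* (377 CPM), *lhx9* (375 CPM), *mab21l1* (365 CPM), *nr2f1a* (423 CPM), *roraa* (358 CPM), *zic1* (349 CPM), *hoxb3a* (320 CPM) and *lhx2b* (279 CPM). Library by library, *nr2f1a* was above *evx2* (340, 460 and 379 CPM) in all 3, *hoxb3a* and *lhx2b* were below it in all 3, and the other 7 were above it in some libraries and below it in others.

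**Figure D3:**
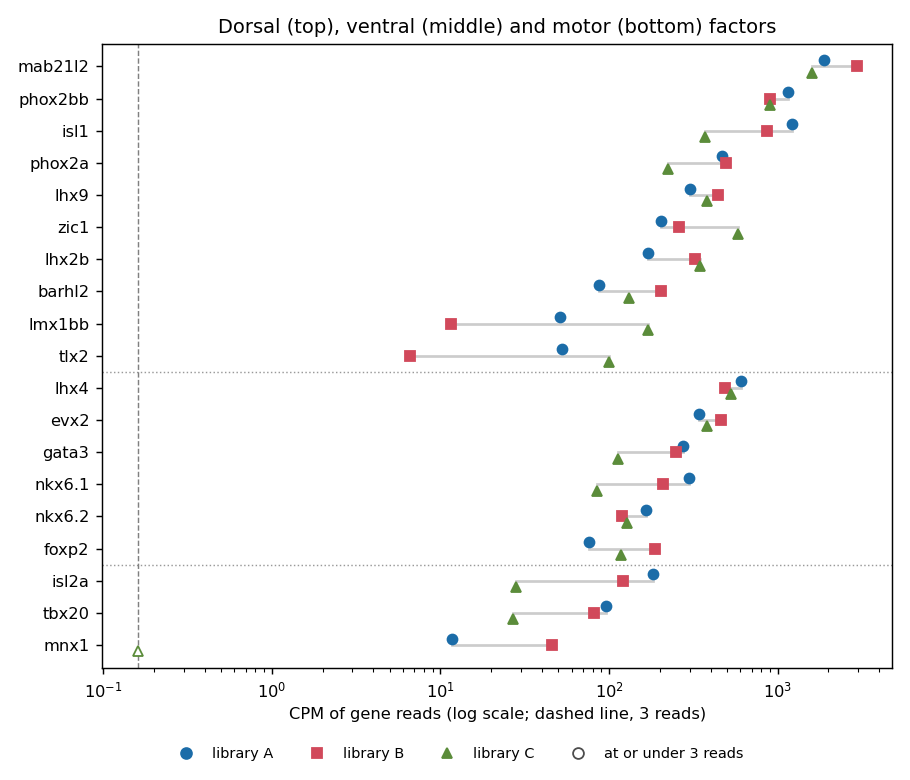
Levels of dorsal, ventral and motor factors in the 3 sibling libraries, in CPM on a log axis; each marker is 1 library and the open marker on the dashed line is a library at or under 3 reads. *evx2* lies within 1.35-fold over the libraries, *lmx1bb* and *tlx2* are lowest in library B, and *isl1*, *nkx6.1*, *isl2a* and *tbx20* are lowest in library C.

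Genes of motor neurons were mostly highest in A and lowest in C. Their summed level was 6314 CPM in A, 4402 CPM in B and 3274 CPM in C. Library A was the highest for 12 of 16 members with a mean of 10 CPM or more and C was the lowest for 12 of 16, against 30.3% of all genes highest in A and 37.3% lowest in C. *isl2a*, of postmitotic motor neurons, had 182, 121 and 28.1 CPM, and *tbx20*, of cranial motor neurons, had 95.6, 81.0 and 27 CPM. *chodl*, a surface protein known from fast motor neurons of the mouse, had 407, 174 and 184 CPM. *mnx1*, of spinal motor neurons, was highest in B instead, with 11.8, 46.1 and 0 CPM. The list shares *isl1*, *phox2a*, *phox2bb*, *lhx4*, *nkx6.1*, *chata*, *slc18a3a* and *slc5a7a* with the lists above, so these are not separate evidence. The part of motor neurons in the acetylcholine values was not tested. In the list for the neighboring medial vestibular nucleus, which also holds *phox2a* and *penkb*, the nicotinic subunit *chrna2b* had 93.6, 67.5 and 53.2 CPM and *pou4f1* had 8.71, 11 and 7.88 CPM.

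Factors of neuronal maturation were highest in library B. Their sum was 8743 CPM in A, 16184 CPM in B and 12452 CPM in C, and B was the highest for 18 of 25 genes with a mean of 10 CPM or more, against 41.2% of all genes. *sox4a*, which acts in young postmitotic neurons, had 2429, 6842 and 4529 CPM. *zc4h2*, a factor of interneuron development, had 1923, 2488 and 2296 CPM, and *sox11a* had 1129, 1314 and 1192 CPM. *ebf3a* had 544, 871 and 767 CPM, and *onecut1* had 552, 1097 and 495 CPM.

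Receptors for glutamate, GABA, glycine and acetylcholine were represented by 102 genes with a row, of which 64 reached 1 CPM in every library and 54 had a mean of 10 CPM or more. Among all 28802 genes these counts were 11738 and 9633. Of these 54, 32 (59.3%) stayed within 2-fold, near the 58.3% of all genes, and library B was the lowest for 30 (55.6%), against 33.8% of all genes. The receptor lists therefore varied about as much as other genes of that level, with B lowest more often.

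AMPA receptors carry fast excitation, and all 8 subunit genes had a mean of 10 CPM or more. *gria2b* had 179, 107 and 226 CPM and *gria2a* had 138, 86.2 and 142 CPM; GluA2, the subunit they encode, makes AMPA receptors impermeable to calcium once its RNA is edited. The 2 genes took 48.9, 40.3 and 51.2% of AMPA subunit reads. *gria1a* had 94.2, 101 and 122 CPM and *gria3b* had 65.6 ± 17.2 CPM (SD, n = 3). NMDA receptors need GluN1, and its genes *grin1b* (409, 251 and 429 CPM) and *grin1a* (320, 161 and 359 CPM) took 66.0 to 76.9% of NMDA subunit reads. Both were lowest in B. Among the subunits that partner it, *grin2aa* had 67.6, 92.1 and 79.1 CPM and *grin2db* had 38.1, 48.3 and 40.1 CPM, with B highest, whereas *grin2bb* (26.4, 20.5 and 43.1 CPM), *grin2da* (29.5, 10.9 and 33.1 CPM) and *grin2ca* (12.6, 5.89 and 16.4 CPM) were lowest in B.

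Kainate and delta receptors summed to 187, 160 and 166 CPM. *grid1a*, a delta receptor that organizes synapses, had 44.0, 37.9 and 18.7 CPM. *grik4*, a kainate subunit, had 24.1, 20.6 and 53.6 CPM and *grid1b* had 40.3, 23.5 and 33.1 CPM. Metabotropic glutamate receptors act through G proteins. *grm8a* had 58.2, 151 and 92.0 CPM, *grm2b* had 94.9, 62.1 and 135 CPM, and *grm4* had 84.2, 104 and 89.3 CPM. These 3 belong to the groups that couple to inhibitory G proteins. *grm1a*, of the group that couples to Gq, had 29.8, 3.75 and 36.1 CPM, the widest span among members of this list at 10 CPM or more.

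GABA-A receptors, the chloride channels gated by GABA, were even: their sum was 816, 807 and 788 CPM. Of 10 subunit genes with a mean of 10 CPM or more, 8 stayed within 2-fold, against 58.3% of all genes. *gabra5* had 200, 191 and 211 CPM. *gabrp* was as steady, at 128, 130 and 142 CPM. The exceptions were *gabrz*, with 26.8 and 14.9 CPM in A and B and no read in C, and *gabrb1*, with 14.8, 7.04 and 13.5 CPM. *gabra4*, *gabra6a* and *gabra6b* were at or under 3 reads in every library. Of the metabotropic GABA-B receptor genes, *gabbr1b* had 83.9, 81.9 and 71.9 CPM, *gabbr2* had 46.8, 52.4 and 26.9 CPM and *gabbr1a* had 9.11, 14.1 and 3.59 CPM.

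Glycine receptors and their scaffold summed to 978, 621 and 793 CPM. *glrbb*, the subunit that binds gephyrin, had 347, 201 and 326 CPM, and gephyrin itself, *gphna*, had 187, 147 and 111 CPM, with its copy *gphnb* at 123, 73.1 and 109 CPM. The ligand-binding subunit *glra1* had 178, 134 and 115 CPM. *glra3* had 44.1, 6.15 and 17.0 CPM, a 7.17-fold span, and *glra4b* had no read in any library. Genes for inhibitory receptors were thus present beside genes for excitatory receptors in every library.

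Nicotinic receptors summed to 433, 365 and 247 CPM over 22 genes with a row. Of these, 9 were at or under 3 reads in every library, against 9164 of all 28802 genes. *chrna5* was highest in B with 78.8, 177 and 88.3 CPM. *chrnb4* had 87.5, 41.4 and 19.3 CPM and *chrna3* had 59.1, 15.6 and 19.9 CPM; these 2 form the ganglionic type of receptor and were highest in A, as the cholinergic genes were. *chrnb3a* was even at 33.9, 32.7 and 42.0 CPM. Of the muscle-type subunits, *chrna1*, *chrne* and *chrng* had no read, *chrnb1* had 1 read in B and *chrnd* had 13 reads, all in C. Of the muscarinic receptors 1 gene had a mean of 10 CPM or more: *chrm4a*, coupled to inhibitory G proteins, had 41.3, 12.7 and 11.5 CPM. *chrm3a* had 10.6, 1.67 and 8.79 CPM, *chrm2a* had 5.61, 3.86 and 10.9 CPM, and *chrm5b* stayed at or below 2.15 CPM.

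Receptors for monoamines and peptides were lower in reads. *htr1aa*, a serotonin receptor, had 55.2, 39.2 and 62.9 CPM and *adra2c*, an adrenergic receptor, had 42.4, 60.6 and 36.4 CPM, in libraries with and without *tph2* or *dbh* reads. The dopamine receptor *drd2b* had 19.9, 47.8 and 45.0 CPM, while its copy *drd2a* had 41.0 and 41.7 CPM in A and B and no read in C. *drd4-rs* had 27.8, 5.16 and 33.4 CPM and the serotonin receptor *htr1fa* had 25.1, 2.87 and 10.3 CPM. Both were lowest in B.

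Peptide receptors summed to 662, 265 and 636 CPM. B was the lowest for 8 of 12 with a mean of 10 CPM or more, against 33.8% of all genes. *oprl1*, the nociceptin receptor, had 188, 21.3 and 105 CPM. *adcyap1r1a*, the receptor of PACAP, had 129, 58.2 and 122 CPM, and its ligand gene *adcyap1b* was lowest in the same library. *calcrla*, which forms the CGRP receptor, had 80.1, 32.5 and 66.7 CPM. The galanin receptor *galr2b* (44.4, 5.0 and 67.3 CPM) and the somatostatin receptors *sstr1a* (23.1, 4.59 and 24.7 CPM) and *sstr1b* (22.8, 1.15 and 19.2 CPM) were lowest in B as well. *npy2r*, a neuropeptide Y receptor, had 29.3, 7.92 and 0 CPM and *sstr5* had 0, 13 and 17.9 CPM. The driver line uses regulatory sequence of a pufferfish hypocretin receptor gene, and the zebrafish gene *hcrtr2* had 117 reads in A, 50 reads in B and 4 reads in C.

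**Figure D4:**
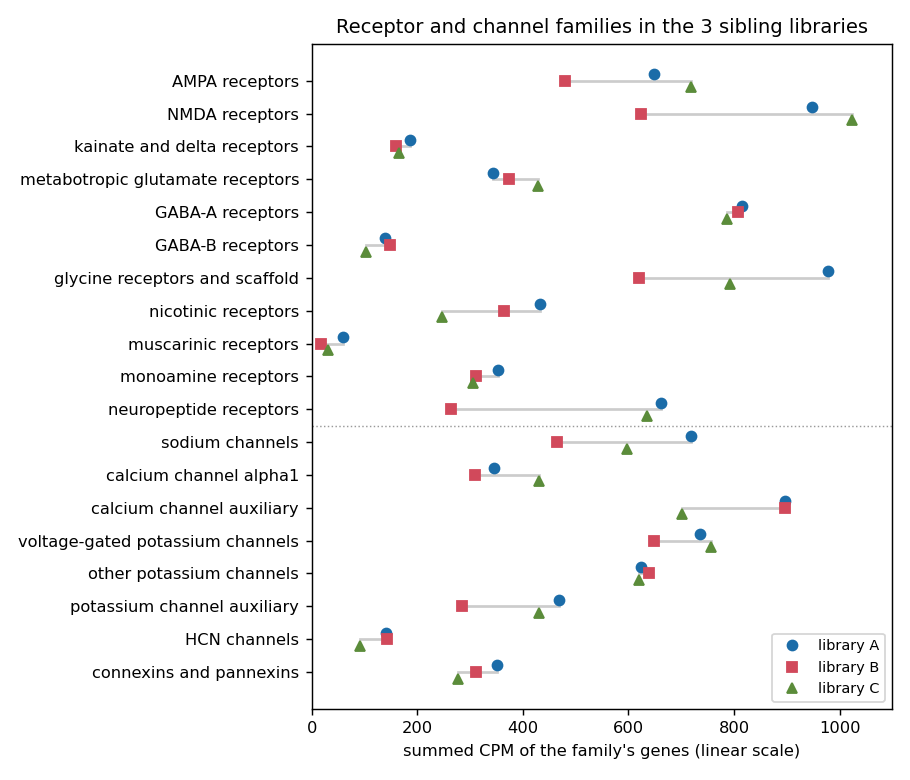
Summed CPM of receptor families (upper part) and channel families (lower part) in the 3 sibling libraries on a linear axis; each marker is 1 library and grey lines join the lowest and the highest. GABA-A receptors span 788 to 816 CPM and the other potassium channels 620 to 639 CPM, whereas NMDA receptors, peptide receptors and sodium channels are lowest in library B.

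Ion channels were represented by 160 genes with a row, of which 81 reached 1 CPM in every library and 64 had a mean of 10 CPM or more. Among all 28802 genes these counts were 11738 and 9633. Of the 64, 39 (60.9%) stayed within 2-fold, again near the 58.3% of all genes. Library B was the lowest for 29 of them (45.3%), against 33.8% of all genes.

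Sodium channels start the action potential. *scn8aa*, the pore of Nav1.6, had 167, 104 and 147 CPM, and its auxiliary subunits *scn1bb* (212, 82.2 and 184 CPM) and *scn2b* (104, 68.2 and 121 CPM) shared B as the lowest library. *nalcn*, the sodium leak channel, was even at 45.1, 48.9 and 51.8 CPM. *scn4ba*, the subunit tied to resurgent current in mammals, had 67.0, 24.4 and 10.4 CPM. The sodium channel genes summed to 719, 464 and 597 CPM.

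Calcium channels were led in reads by *cacna1aa*, the P/Q-type pore of presynaptic terminals, with 134, 153 and 207 CPM. Its copy *cacna1ab* had 34.8, 32.9 and 48.5 CPM, the N-type pore *cacna1bb* had 43.7, 40.7 and 38.6 CPM, and the T-type pore *cacna1g* had 38.3, 30.5 and 31.7 CPM. These 4 stayed within 2-fold. The auxiliary subunit *cacnb4b* had 319, 379 and 267 CPM, *cacng2a*, which also traffics AMPA receptors, had 106, 92.1 and 73.0 CPM, and *cacng3b* had 98.9, 76.0 and 96.1 CPM. *cacna2d1a*, an alpha2-delta subunit, was lowest in C at 89.8, 69.3 and 25.8 CPM. Muscle-type pores *cacna1sa* and *cacna1sb* were at or under 3 reads in every library.

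Voltage-gated potassium channels shape repolarization. Of 15 with a mean of 10 CPM or more, 12 stayed within 2-fold, against 58.3% of all genes. *kcnc1a*, a Kv3 channel of fast-firing neurons, had 150 CPM in A, 152 CPM in B and 158 CPM in C. *kcnc3a*, of the same family, had 96.6, 26.7 and 66.5 CPM and was not as even. The ether-a-go-go channels *kcnh7* and *kcnh8* had 71.6, 87.6 and 78.4 CPM and 41.5, 65.6 and 42.6 CPM. Among other potassium channels *kcnma1a*, the large-conductance calcium-activated channel, had 235, 332 and 285 CPM. *kcnn1a*, a small-conductance channel of the after-hyperpolarization, had 111, 86.4 and 122 CPM, while its copy *kcnn1b* had 15.7, 3.70 and 22.7 CPM. The G protein-gated channel *kcnj3a* (58.2, 68.2 and 37.2 CPM) and the inward rectifier *kcnj19b* (57.2, 50.6 and 27.3 CPM) were lowest in C.

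Auxiliary potassium subunits were lower in B as a sum, at 468, 284 and 431 CPM. *dpp6b*, which binds Kv4 channels, had 148, 72.0 and 203 CPM. The Kv4 partners *kcnip3a* and *kcnip1b* had 153, 91.5 and 49.8 CPM and 92.9, 57.0 and 98.3 CPM. *dpp6a* had 34.4, 27.2 and 25.9 CPM, and *kcnab1b*, a beta subunit, had 20.3, 1.04 and 29.5 CPM. HCN channels carry the inward current that opens on hyperpolarization. *hcn2b* had 69.5, 95.7 and 36.3 CPM, lowest in C. *hcn4* was nearly equal in all 3, at 13.9, 14 and 13.9 CPM, and *hcn4l* had 11.6, 1.72 and 7.50 CPM.

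Electrical synapses are built from connexins. *gjd1a*, a neuronal connexin of zebrafish hindbrain synapses, had 221, 223 and 152 CPM, and took 90.3 to 98.8% of the reads of *gjd1a* and *gjd2b*. *gjd2b* had 9.61, 2.71 and 16.3 CPM. The pannexins *panx1b* (87.6, 72.8 and 91.2 CPM) and *panx1a* (9.67, 9.64 and 5.73 CPM) were present too. Both genes of the list at 10 CPM or more stayed within 2-fold, against 58.3% of all genes.

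Calcium-binding proteins summed to 3048, 1556 and 2205 CPM. B was the lowest for 9 of 14 with a mean of 10 CPM or more, against 33.8% of all genes. The neuronal calcium sensor *hpca* had 767, 542 and 437 CPM. *necab2* had 531, 155 and 409 CPM, *vsnl1b* had 462, 242 and 293 CPM and *ncalda* had 365, 162 and 322 CPM. *calb1*, calbindin, was highest in A at 348, 133 and 116 CPM. Parvalbumin *pvalb6* had 90.6, 14.1 and 61.0 CPM. The 2 *ncs1* copies were opposed between B and C: *ncs1a* had 27.9, 1.56 and 75.1 CPM and *ncs1b* had 83.1, 60.1 and 8.20 CPM. Calmodulin genes summed to 7018, 4752 and 6117 CPM, with *calm3b* at 3759, 2181 and 3287 CPM, *calm2b* at 1646, 1424 and 1358 CPM, *calm3a* at 650, 453 and 625 CPM and *calm2a* at 559, 330 and 508 CPM.

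Ion gradients are held by pumps and cotransporters. *atp1a3a*, the neuronal alpha subunit of the sodium pump, was even at 637, 626 and 596 CPM. The beta subunits *atp1b3b* (908, 579 and 842 CPM), *atp1b2a* (820, 494 and 667 CPM) and *atp1b3a* (465, 327 and 561 CPM) were lowest in B. *atp1b1a* went the other way with 182, 506 and 31.5 CPM, and *atp1a1b* had 13.3, 0 and 20.8 CPM. KCC2, the chloride extruder that makes GABA and glycine inhibitory in mature neurons, is encoded by *slc12a5b* (41.3, 26.6 and 51.8 CPM) and *slc12a5a* (24.4, 27.6 and 39.2 CPM). *slc12a2*, which brings chloride in and dominates in immature neurons, had 45.4, 21.7 and 24.8 CPM, so genes of both directions were present in each library, and *slc12a7b* stayed at or below 10.3 CPM.

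The top 50 genes took 15.9 to 18.2% of gene reads. The rows at the top carry a clone or sequence name without a gene symbol. They are CR383676.2 (26368, 27265 and 37659 CPM) and NC_002333.4 (8785, 10535 and 10343 CPM), and are not described further. Next came *stmn1b*, then the mitochondrial gene *mt-co1* (6721, 3934 and 8129 CPM), *sox4a*, the growth-cone protein *basp1* (5017, 3409 and 5089 CPM) and the chromatin protein *hmgb3a* (3807, 4132 and 4965 CPM). *ptmaa* (3760, 3849 and 4182 CPM), *gapdhs* (4190, 3600 and 3381 CPM), *pnrc2* (3225, 4016 and 3333 CPM) and *snap25a* followed. Of the remaining genes among the top 20, *mt-co2* (3244, 2698 and 4355 CPM) and *mt-co3* (2596, 3050 and 3154 CPM) are mitochondrial. *gpm6ab* (3654, 2415 and 3608 CPM), *marcksl1b* (2429, 2786 and 3099 CPM), *cd81a* (3951, 1558 and 2516 CPM) and *rtn1a* (2681, 2339 and 2646 CPM) encode membrane or membrane-bound proteins, *tuba1c* (3049, 2006 and 3029 CPM) is a tubulin, and *calm3b* and *meis1b* are given above.

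Genes of microtubules and the growth cone took 46672, 35347 and 45371 CPM in A, B and C. Of 34 with a mean of 10 CPM or more, 23 stayed within 2-fold, against 58.3% of all genes. *stmn3* was the 1 member with a fold over 5, at 57.5, 9.17 and 51.0 CPM. The vesicle release list summed to 15305, 9709 and 14211 CPM, and 28 of 35 stayed within 2-fold (58.3% of all genes did). B was lowest for 19 of the 35, against 33.8% of all genes. *stxbp1a*, which chaperones syntaxin, had 1783, 1203 and 1224 CPM, and *snap25b* had 1008 ± 269 CPM (SD, n = 3). *snap25a* took 77.3, 65.0 and 85.3% of the reads of its pair.

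Zebrafish carry many genes as duplicates named with a final a and b. Of 2868 such pairs of names, 1895 had a summed mean of 10 CPM or more, and in 507 of these (26.8%) the same copy took 90% or more of the reads in every library, the a copy in 290 pairs and the b copy in 217. Pairs are taken by name only. In 341 pairs the copy with more reads was not the same in all 3 libraries. Among 780 pairs with a summed mean of 100 CPM or more, the most one-sided toward b included *slc1a2b*, *plscr3b*, *cycsb* and *sumo2b*, whose a copies had at most 2 reads in a library. The most one-sided toward a were *syt1a* (611 CPM), *pkma* (318 CPM), *rassf2a* (241 CPM), *slc2a3a* (228 CPM) and *gpia* (307 CPM), given as means, whose b copies had at most 3 reads. Reads that map equally well to both copies are left out by many counters, so a share near 0 can also follow from identical sequence, and 2.59 to 2.79% of listed reads were not unique.

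Markers of other cells were present and differed by library. Skin genes summed to 3926 CPM in A, 189 CPM in B and 1128 CPM in C. *krt4*, a keratin of surface epithelium, had 2945 CPM in A and 165 CPM in C, with 26 reads in B. *icn2*, a calcium-binding protein of skin, had 152, 0 and 331 CPM, *icn* had 118, 27.9 and 189 CPM, and *epcam*, of epithelia, had 91.5, 53.9 and 177 CPM. The keratin *cyt1* had 176, 7.04 and 17.9 CPM. The keratins *cyt1l* (97.7, 0.313 and 11.2 CPM), *krt5* (80.2, 0 and 6.65 CPM), *krt17* (54.7, 0 and 27 CPM) and *krt8* (17.0, 0 and 22.2 CPM) and the claudin *cldne* (83.9, 0 and 115 CPM) had at most 6 reads in B. The claudin *cldni* went the other way, with 28.1 CPM in B and no read in A or C, and the keratin *krt15* was also highest in B, at 0.401, 4.64 and 0 CPM. *agr1* had 50.2, 0 and 3.22 CPM and *anxa1c* had 16, 0 and 25.6 CPM, whereas *pfn1* had 7.26, 40.4 and 11.5 CPM. Of 22 skin genes, 21 had over 3 reads in at least 1 library, whereas 9164 of all 28802 genes did not. Without A the skin sum averaged 658 CPM, against 1748 CPM over 3 libraries. The part of skin in other values was not tested.

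Library B held genes of the anterior pituitary, a list drawn up after the values were seen. *tshba*, the beta chain of thyrotropin, had 56011 reads in B, 4 reads in A and none in C, which was 2919 CPM of B. *cga*, the alpha chain it pairs with, had 19265 reads in B, 1 read in A and none in C. Both together were 0.392% of the gene reads of B. *dio2*, which activates thyroid hormone, had 7030 reads in B and none in A or C. The factors *pou1f1* (7, 762 and 0 reads), *pitx3* (0, 1385 and 3 reads) and *gata2a* (351, 1257 and 66 reads) were highest in B too. Genes of other pituitary hormones, *gh1*, *prl*, *pomca*, *fshb* and *lhb*, had no read in any library, and neither had *pitx1*. The pituitary list summed to 18.2, 4468 and 3.75 CPM.

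Cell cycle genes were also mostly highest in B. The cell cycle list summed to 151, 431 and 102 CPM, with *mcm7*, a replication helicase, at 87.9, 215 and 65.6 CPM. *mki67* had 32.1 CPM in B and no read in A or C, *top2a* had 0, 23.2 and 7.13 CPM and *mcm4* had 2.30, 20.7 and 8.90 CPM. Exceptions were *pcna* (33.8, 23.4 and 5.47 CPM), *mcm5* (3.91, 0 and 5.90 CPM) and *ccnd1*. *ccnd1* had 7.36 CPM in A and no read in B or C. Without B the sum averaged 127 CPM, against 228 CPM over 3 libraries. The higher reads of *sox4a* and of the maturation factors in B stand beside these values, and the part of cycling cells in them was not tested.

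Glial genes summed to 2193, 1999 and 3244 CPM. Of that list, *glula* and *slc1a2b* also stand among the glutamate genes above and *zic1* among the dorsal factors. Which cells made their reads was not tested. *plp1b*, a myelin protein gene, had 229, 446 and 509 CPM and *mbpb* had 151, 92.3 and 167 CPM. *mbpa*, also of myelin, had 126 CPM in A and no read in B or C, and *fabp7a*, of radial glia, had 157, 4.01 and 140 CPM. *gfap*, a defining marker of radial glia in zebrafish, had 0, 11 and 24 reads, and *olig1*, of oligodendrocytes, had no read in any library. Other low members of the list were present: *cldnk* (364, 0 and 0 reads), *sox10* (149, 1 and 0 reads) and *plp1a* (94, 28 and 0 reads) were highest in A. *mpz* (19, 104 and 153 reads) and *erbb3b* (2, 34 and 92 reads) were highest in C.

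Blood, vessel and immune cells left little trace. Erythroid genes summed to at most 10.5 CPM, and 13 of 17 were at or under 3 reads in every library, against 9164 of all 28802 genes. *cahz*, a carbonic anhydrase of red cells, led with 9.92, 1.41 and 0 CPM. Vascular genes summed to at most 15.6 CPM, led by *cldn5b* with 8.46, 13.8 and 0 CPM. Microglia and macrophage genes summed to 37.8, 207 and 51.5 CPM, of which *apoeb*, a lipid carrier that other glia also make, held 33.4, 201 and 48.0 CPM. The defining markers *csf1ra* and *mpeg1.1* had no read. Muscle genes, led by *ttn.1* (11.5, 17.9 and 8.52 CPM), summed to 33.3 to 68.3 CPM. Cartilage and connective tissue genes summed to 92.4 to 103 CPM, led by *sparc* (73.9, 24.9 and 46.2 CPM), and *col1a1a* had 40.0 CPM in B, 1 read in C and none in A. Hair cell and otic genes summed to 21.7, 63.0 and 39.1 CPM. *otofa* led in mean (14.7, 6.25 and 27.2 CPM) but was lowest in B. *stm* (49, 217 and 15 reads), *pvalb8* (0, 261 and 0 reads) and *tmc2b* (0, 244 and 0 reads) were highest in B, and *tectb* (17, 2 and 87 reads) in C.

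**Figure D5:**
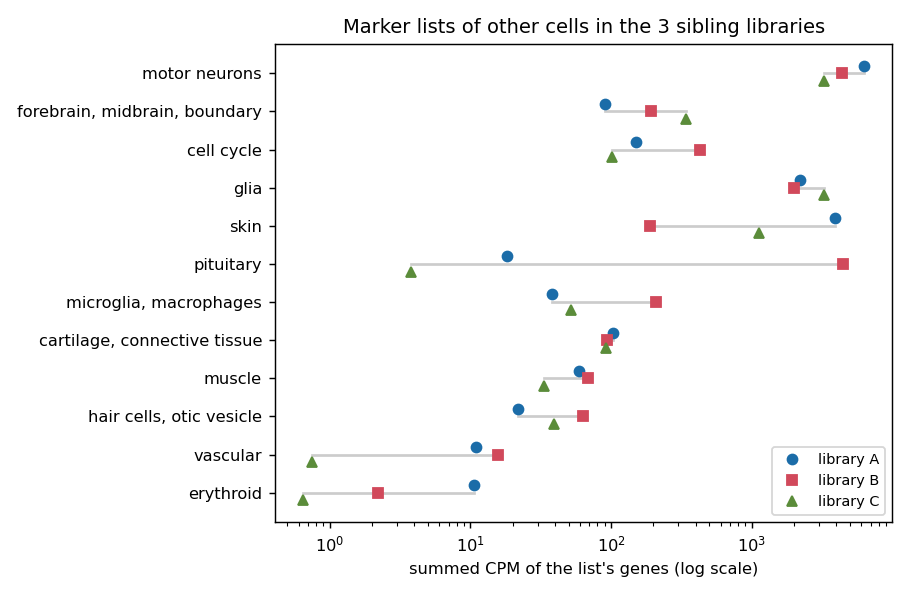
Summed CPM of marker lists of other cells in the 3 sibling libraries, on a log axis; each marker is 1 library and grey lines join the lowest and the highest. The pituitary list reaches 4468 CPM in library B alone, the skin list is highest in A at 3926 CPM, the forebrain, midbrain and boundary list is highest in C at 342 CPM, and vascular and erythroid lists stay at or below 15.6 CPM.

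Genes limited to single libraries were counted over the whole table. At least 10 CPM in 1 library and 20-fold or more above both others were reached by 62 genes in A, 96 in B and 25 in C. For low genes both other libraries had to reach 10 CPM, with the library 20-fold or more below each. This was met by 11 genes in A, 123 in B and 55 in C. Among genes with a mean of 50 CPM or more, the 10 with the largest ratio of highest to lowest library were *cga*, *tshba*, *dio2*, *cart4*, *krt4*, *icn2*, *sst1.1*, *hpgd*, *zgc:111983* and *si:ch211-195b11.3*. *hpgd*, which breaks down prostaglandins, had 92.4 and 129 CPM in A and C and 1 read in B. *zgc:111983* (106, 0 and 137 CPM) and *si:ch211-195b11.3* (135, 0 and 97.6 CPM) had no read in B either. B was the lowest of the 3 for 6 of these 10.

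Genes that respond to dissociation or activity were present in all libraries. Their sum was 2978, 3601 and 4165 CPM. All 32 with a row were above 3 reads in at least 1 library, whereas 9164 of all 28802 genes were not. *ier5* had 519, 993 and 749 CPM, *fosab* had 464, 274 and 845 CPM, *jun* had 378, 524 and 298 CPM and *egr4* had 235, 122 and 292 CPM. The heat shock gene *hsp70l* was highest in B with 115, 334 and 42.4 CPM, *npas4a*, induced by activity, had 124, 28.3 and 172 CPM, and *fosb* had 13.4, 9.90 and 62.0 CPM. The libraries thus differed in these genes too, in an order that was not the same for each gene. The part of dissociation in the levels above was not tested.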

How the data were processed

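Low-input SMART-Seq HT libraries, which carry no strand, were aligned by the authors to the GRCz11 assembly, to which both reporter sequences had been added. The aligner and counter are not given in the sources used here, and the submitters' processing notes name DESeq2. The authors deposited raw counts, whole reads per gene and library. A second deposited table of normalized values was not used. The columns carry run codes, not the replicate numbers of the labels, so libraries were lettered in the order of the codes. The 5 rows that name no gene held 41.2 to 48.1% of listed reads and stayed out of library sizes.

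Counts were divided by gene reads of the library and multiplied by 1000000 (CPM), without a filter. No sequence, gene position or transcript length was used. Reads of overlapping and antisense genes cannot be told apart. The biological coefficient of variation, estimated with edgeR 4.0.16 over 12314 genes with at least 10 reads in each library, was 48.2%; the estimate was tested on counts simulated with known dispersions. R 4.3.3, DESeq2 1.42.0, Python 3.11.15 and pandas 2.3.3 were used.

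Members and gene lists were chosen with earlier results of these data known. Named genes were the 4 given markers, the 4 members of each list with the highest mean CPM, members with a mean of 10 CPM or more and a fold over 5 between libraries, the 20 highest genes, the 10 genes of largest fold at 50 CPM or more, the 10 factors nearest to *evx2*, and the 5 most one-sided pairs on each side at 100 CPM or more. Further members of a list were named after their values were seen. A few genes that the rule selects are not reported here. Alternatives were TMM factors, DESeq2 size factors, a filter of 10 reads in every library, leaving out each library, and adding the sibling library of the fourth repeat.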

Additional observations from a re-analysis of the deposited data

How the results depend on the processing

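Over 25 summed levels and counts, TMM factors (0.959 to 1.04 per library) and DESeq2 size factors moved none by more than the SD over libraries, or a count by more than 1.5 times. With factors so near 1 and a wide SD for most lists, these limits could hardly be passed, so little follows from this. A filter of 10 reads in every library gave a GABA-A receptor sum of 789 CPM and 132 one-sided pairs, since it removes pairs with a copy near 0. The same filter gave 973 CPM for neuropeptide precursors, against 1562 CPM, and 113 CPM for forebrain, midbrain and boundary factors, against 208 CPM; both moves are within the SD over libraries. Adding the sibling library of the fourth repeat, with 15865368 gene reads, moved 8 values and kept 17 within these limits. Genes at 1 CPM in every library became 4139, one-sided pairs 280 and GABA synthesis 317 CPM. Ventral factors became 2173 CPM, GABA-A receptors 691 CPM, calcium channel pores 426 CPM, voltage-gated potassium channels 563 CPM, and forebrain, midbrain and boundary factors 1141 CPM; the cause was not tested. Leaving out each library in turn moved 2 of the 25 by more than 1.5 times: skin, to 658 CPM without A, and the cell cycle list, to 127 CPM without B. Levels per transcript length were not run, because no gene lengths of the build were used. Under 10 CPM the spread between libraries limits what can be said, with a median trended coefficient of variation of 62.9%, against 30.2% at 100 to 1000 CPM. No paired analysis was possible because no groups were compared and no test was run.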
